A study of Homo sapiens with 4 samples.

Results

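The enzymes that crosslink extracellular matrix were followed as 6 genes, the lysyl oxidases LOX, LOXL1, LOXL2, LOXL3 and LOXL4 and transglutaminase 2 (TGM2). They were taken from the deposited count table by exact gene symbol, and all 6 were found among its 17791 genes. Their transcripts had been sequenced in engineered prostate cancer tissues (EPCaTs), which are cell-laden gels, and in a 2D coculture. Each EPCaT held PC-3 cells, a human line grown from a metastasis of prostate cancer, and BJ-5ta cells, foreskin fibroblasts immortalised with telomerase, mixed at 5 to 1. They were embedded in a hydrogel of poly(ethylene glycol) and fibrinogen (PF) and were taken on day 15. The PF EPCaT had no further polymer, the PF+2%PEGDA EPCaT had excess poly(ethylene glycol) diacrylate (PEGDA) at 2% w/v (92 volumes of PF to 8), and the PF+3%PEGDA EPCaT had it at 3% w/v (88 volumes to 12). The 2D coculture held both lines on a flat surface, with neither its day nor its cell ratio in the labels, and no library held either line alone. By the study's title, PEGDA was varied to cover the stiffness of prostate tumours.

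Each of the 4 groups had 1 library, and for the EPCaTs its RNA was drawn from more than 2 tissues. Without replicates, no test between groups was possible and none is printed. Total counts ran from 13760301 to 15687894, and 1 count was worth 0.0600 to 0.0734 CPM (counts per 1000000, after scaling). The comparison took in 14851 genes that reached 1 CPM in some library, and the 6 genes were among them. A gene is called higher or lower below when its log2 ratio between 2 libraries is at least 1 in size and its 95% interval excludes equality. All intervals cover counting error only, not variation between cultures. In bulk RNA, fewer cells of a type and less RNA per cell cannot be told apart.

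Lysyl oxidases are secreted copper-dependent amine oxidases that turn lysines of collagen and elastin into reactive aldehydes, which then condense into the covalent crosslinks that stiffen matrix. LOX and LOXL1 carry a propeptide that is removed outside the cell, whereas LOXL2, LOXL3 and LOXL4 carry scavenger receptor cysteine-rich domains in its place. TGM2 joins glutamine to lysine side chains in a calcium-dependent reaction, binds GTP, and at the cell surface acts as a partner of integrins and fibronectin. LOX and LOXL2 are known targets of hypoxia-inducible factor (HIF), and in solid tumours both fibroblasts and cancer cells can make them.

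LOXL1 was the most abundant of the 5 lysyl oxidases per length in every library, and was not called in any comparison. LOX was higher with PEGDA than in the PF gel, and LOXL3 was lower with 3% PEGDA. TGM2 was the member that was lower in all 3 EPCaTs than in 2D. LOXL2 and LOXL4 had their lowest level in the PF EPCaT, and neither was called between EPCaTs.

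**Figure D1:**
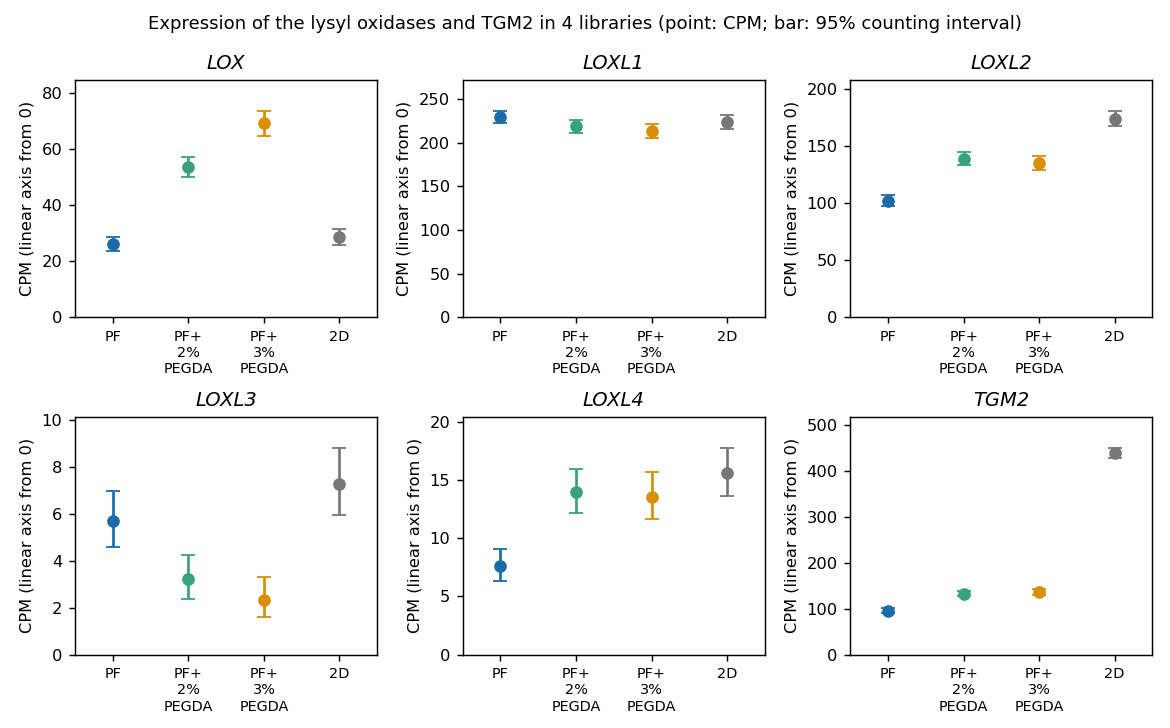
CPM of each of the 6 genes (vertical axes, linear and from 0) in the 3 EPCaTs, by PEGDA content, and in the 2D coculture (horizontal axes). Points are single libraries and bars are 95% counting intervals. LOX runs from 26.2 CPM in PF to 69.2 CPM with 3% PEGDA, LOXL1 lies between 214 and 229.5 CPM, and TGM2 reaches 439 CPM in 2D.

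LOX, the founding member of the family, acts mainly on fibrillar collagen and elastin. Its gene lies on the minus strand of chromosome 5 (122063195 to 122078360, GRCh38, GENCODE release 29). It measured 26.2 CPM in the PF EPCaT, 53.5 CPM in the PF+2%PEGDA EPCaT, 69.2 CPM in the PF+3%PEGDA EPCaT and 28.6 CPM in the 2D coculture. The level was high with 3% PEGDA and intermediate with 2% PEGDA, and the intervals of the PF and 2D libraries overlapped. With 3% PEGDA against PF, LOX was 2.64-fold higher (95% interval 2.35 to 2.96). With 2% PEGDA against PF it was 2.04-fold higher (1.82 to 2.30), a call that is lost with total counts as the only scaling (log2 ratio 0.96). The step between the PEGDA gels, 3% against 2%, had a log2 ratio of 0.37 (0.23 to 0.51), under the size rule with an interval that excludes equality. Among all 14851 genes, 98.1% had a smaller ratio than LOX in 3% PEGDA against PF.

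Against 2D, LOX was called higher in the PF+3%PEGDA EPCaT alone, at 2.42-fold (2.15 to 2.72). The PF+2%PEGDA EPCaT had a log2 ratio of 0.90 (0.73 to 1.08), which passed the size rule with total counts as the only scaling (1.01). The PF EPCaT had a log2 ratio of -0.13 (-0.32 to 0.07), and this turned to 0.053 under that scaling.

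The 250 bases before the annotated start were examined because LOX is a known HIF target and because LOX, LOXL1 and LOXL3 differed in how they moved with PEGDA. Of the 6 genes, 4 were searched in RefSeq promoter sequences (GRCh38.p14), and LOXL2 and TGM2 were not. The letters before LOXL2, the other known HIF target, are therefore not known here. Of the starts that RefSeq lists for a gene, the one furthest upstream was used. GENCODE release 29 places the outer ends of LOX, LOXL1, LOXL3 and LOXL4 further upstream than RefSeq does. The LOXL1 and LOXL3 windows therefore lie wholly, and the LOX and LOXL4 windows in part, inside the GENCODE gene. The sequences read 5′ to 3′ on the gene's strand, and capitals mark the HIF core letters ACGTG or GCGTG on either strand. LOX is at chr5:122078260-122078509, LOXL1 at chr15:73926212-73926461 and LOXL3 at chr2:74553943-74554192.
LOX: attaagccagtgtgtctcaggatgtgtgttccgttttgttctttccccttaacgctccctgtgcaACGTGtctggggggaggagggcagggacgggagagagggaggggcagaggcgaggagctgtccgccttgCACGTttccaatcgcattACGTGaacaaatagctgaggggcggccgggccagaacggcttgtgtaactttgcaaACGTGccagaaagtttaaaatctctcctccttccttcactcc
LOXL1: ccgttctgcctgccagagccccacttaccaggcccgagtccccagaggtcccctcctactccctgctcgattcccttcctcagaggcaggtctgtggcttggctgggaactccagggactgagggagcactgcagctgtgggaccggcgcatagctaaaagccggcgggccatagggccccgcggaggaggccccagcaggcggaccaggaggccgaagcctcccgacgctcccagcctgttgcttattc
LOXL3: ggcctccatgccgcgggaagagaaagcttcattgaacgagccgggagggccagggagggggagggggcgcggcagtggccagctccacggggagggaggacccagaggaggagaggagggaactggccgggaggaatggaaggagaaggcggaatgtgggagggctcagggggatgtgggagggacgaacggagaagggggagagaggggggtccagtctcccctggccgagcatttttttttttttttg

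The LOX window held the core 4 times, each time as ACGTG, with the first bases 185, 116, 98 and 42 bases before the start. The LOXL1, LOXL3 and LOXL4 windows held it 0 times. Of 27305 promoters of this length, 43.1% held ACGTG or GCGTG, and 501 (1.83%) held these letters at least 4 times. For ACGTG alone, 18.6% held it and 29 (0.106%) held it at least 4 times. Among 13 listed hypoxia-inducible genes with a promoter, 10 held either form and 7 held ACGTG. The SMAD letters GTCTG occurred 1 time in LOX, where they overlap the ACGTG furthest from the start, and 1 time in LOXL1, against 37.9% of all promoters with at least 1. The AP-1 letters TGANTCA (6.57% of all promoters) and the TATA letters TATAAA (11.2%) occurred 0 times in the 4 windows. These matches describe letters in the windows and were looked at with the LOX values known.

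Genes induced by low oxygen were set beside LOX and LOXL2, the known HIF targets of the family. Of 16 hypoxia-inducible genes listed beside the family, 15 were called higher in all 3 EPCaTs than in 2D, where 7.84% of all tested genes were called higher in all 3. PGK1, a glycolytic kinase gene, was 5.45- to 8.54-fold higher, and BNIP3, a mitophagy receptor gene, 3.89- to 6.81-fold. The median log2 ratio of the list to 2D was 2.58, 2.65 and 2.93 in the PF, 2% and 3% PEGDA gels. In the same order LOX had -0.13, 0.90 and 1.27, and LOXL2 had -0.77, -0.32 and -0.36. With 3% PEGDA against PF, 0 of the 16 were called, where 3.63% of all tested genes were called higher and 7.51% lower. The log2 ratios of the 16 ran from -0.43 (VEGFA) to 0.89 (LDHA, lactate dehydrogenase A). Their median was 0.34, where LOX had 1.40. In that comparison 12 listed reference genes had a median of 0.41, with B2M and RPLP0 called higher. The part of low oxygen in the levels of LOX and LOXL2 was not tested.

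LOXL1 is needed for elastic fibre upkeep, as known from mice that lack it. Its gene is on the plus strand of chromosome 15 (73925989 to 73952137). It measured 229.5 CPM in the PF EPCaT, 219 CPM in the PF+2%PEGDA EPCaT, 214 CPM in the PF+3%PEGDA EPCaT and 224 CPM in the 2D coculture. Neighbours in the order PF, 2D, 2% PEGDA, 3% PEGDA did not differ beyond counting error, and the ends of that order differed by a log2 ratio of -0.10 (-0.17 to -0.034) for 3% PEGDA against PF. Against 2D the log2 ratios were 0.035, -0.032 and -0.069 in the PF, 2% and 3% PEGDA gels, all with intervals that include equality. These ratios depended on the scaling. With total counts alone they were 0.21 (0.15 to 0.28), 0.077 and 0.0092 for the PF, 2% and 3% PEGDA gels. Once trends of the ratio with GC and length were taken out, they were 0.18 (0.11 to 0.25), 0.096 and 0.15.

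The antisense gene LOXL1-AS1 shares 335 exonic bases with LOXL1 on the opposite strand. It measured 202 CPM in the PF EPCaT, 227 CPM in the PF+2%PEGDA EPCaT, 228 CPM in the PF+3%PEGDA EPCaT and 76.7 CPM in 2D. It was called higher in all 3 EPCaTs, by 2.63- to 2.98-fold, while LOXL1 was not called in any. The count of LOXL1 per count of LOXL1-AS1 was 1.14, 0.964 and 0.935 in the PF, 2% and 3% PEGDA gels, against 2.92 in 2D. The library kit does not mark strand, so reads in the shared bases cannot be told apart. TGM2 shares 394 exonic bases with RPRD1B and LOX 138 with SRFBP1, both on the opposite strand. LOXL2 shares 120 with ENTPD4 on the same strand. Against 2D, RPRD1B was 1.39- to 1.58-fold and ENTPD4 1.14- to 1.60-fold higher in the EPCaTs, and SRFBP1 1.32- to 1.41-fold lower. The part of these genes in the counts of TGM2, LOX and LOXL2 was not tested. Of the 50-base stretches of LOXL1 transcripts, 5.56% occur in another gene.

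LOXL2 crosslinks collagen IV of basement membranes. Its gene is on chromosome 8 (23297189 to 23425328). It measured 102 CPM in the PF EPCaT, 139 CPM in the PF+2%PEGDA EPCaT, 136 CPM in the PF+3%PEGDA EPCaT and 174 CPM in the 2D coculture. The 2D library was highest, the PEGDA tissues were alike within counting error, and PF was lowest. LOXL2 was not called in any comparison. Its log2 ratios to 2D were -0.77 (-0.86 to -0.68), -0.32 (-0.41 to -0.24) and -0.36 (-0.45 to -0.28) in the PF, 2% and 3% PEGDA gels. With 3% PEGDA against PF it was 0.41 (0.31 to 0.50). In that comparison the median was 0.41 over 12 listed reference genes and 0.0018 over all tested genes.

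LOXL4 is the member on chromosome 10 (98247690 to 98268250). It measured 7.62 CPM in the PF EPCaT, 13.98 CPM in the PF+2%PEGDA EPCaT, 13.6 CPM in the PF+3%PEGDA EPCaT and 15.6 CPM in the 2D coculture. PF stood below the other 3 libraries, whose intervals overlapped. In the PF EPCaT against 2D, LOXL4 was 2.04-fold lower (1.64 to 2.56), and that call is lost with total counts as the only scaling (log2 ratio -0.85). With 2% and 3% PEGDA against PF its log2 ratios were 0.87 (0.55 to 1.20) and 0.83 (0.50 to 1.17), both under the size rule. Its order of libraries resembled that of LOXL2. The root mean square difference between their log2 levels, after centring each gene on its mean, was 0.16. It was 0.41 to LOXL1, 0.53 to LOX, 0.63 to TGM2 and 0.75 to LOXL3. Among 11067 genes whose highest library reached 10 CPM, LOXL2 ranked only 338 in closeness to LOXL4. LOXL4 ranked 1244 in closeness to LOXL2, so the likeness is not particular to this pair.

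LOXL3 is a member whose loss disturbs cartilage and palate in mice. Its gene is on chromosome 2 (74532414 to 74555690). It was the least abundant, at 5.70 CPM in the PF EPCaT, 3.22 CPM in the PF+2%PEGDA EPCaT, 2.35 CPM in the PF+3%PEGDA EPCaT and 7.29 CPM in the 2D coculture, from 95, 50, 32 and 107 counts. The PF and 2D libraries overlapped at the upper end and the PEGDA tissues at the lower end. LOXL3 was 2.41-fold lower with 3% PEGDA than in PF (1.61 to 3.75). It was 2.25-fold lower than 2D with 2% PEGDA (1.60 to 3.23) and 3.07-fold lower with 3% PEGDA (2.07 to 4.76). With 2% PEGDA against PF its log2 ratio was -0.82 (-1.35 to -0.31), under the size rule.

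LOXL3 shares 625 exonic bases with HTRA2 and 216 with DOK1, both on the opposite strand, and 14.6% of its 50-base stretches occur in another gene, the largest share of the 6. Its deposited values are not whole numbers, and their fractions do not measure how uncertain its counts are. HTRA2, a mitochondrial protease gene, measured 20.9, 22.6 and 21.2 CPM in the PF, 2% and 3% PEGDA gels, against 38.8 CPM in 2D. It was level over the gels and 1.71- to 1.86-fold lower in them than in 2D. DOK1 measured 3.60, 4.57 and 3.45 CPM over the 3 EPCaTs, against 4.63 CPM in 2D. The part of these 2 genes in the LOXL3 counts was not tested.

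TGM2 lies on chromosome 20 (38127387 to 38166578). It measured 95.9 CPM in the PF EPCaT, 132 CPM in the PF+2%PEGDA EPCaT, 135 CPM in the PF+3%PEGDA EPCaT and 439 CPM in the 2D coculture. The 2D library stood far above the gels, the PEGDA tissues overlapped, and PF was lowest. TGM2 was 4.57-fold lower than 2D in the PF EPCaT (4.33 to 4.83), 3.31-fold lower with 2% PEGDA (3.15 to 3.48) and 3.24-fold lower with 3% PEGDA (3.07 to 3.41). Only 2.56% of tested genes had a lower ratio than TGM2 in the PF EPCaT, 3.75% with 2% PEGDA and 4.37% with 3% PEGDA. Between gels TGM2 was not called. Its log2 ratio was 0.50 (0.40 to 0.60) for 3% PEGDA against PF, where 12 listed reference genes had a median of 0.41. For 3% against 2% PEGDA it was 0.032 (-0.059 to 0.12).

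**Figure D2:**
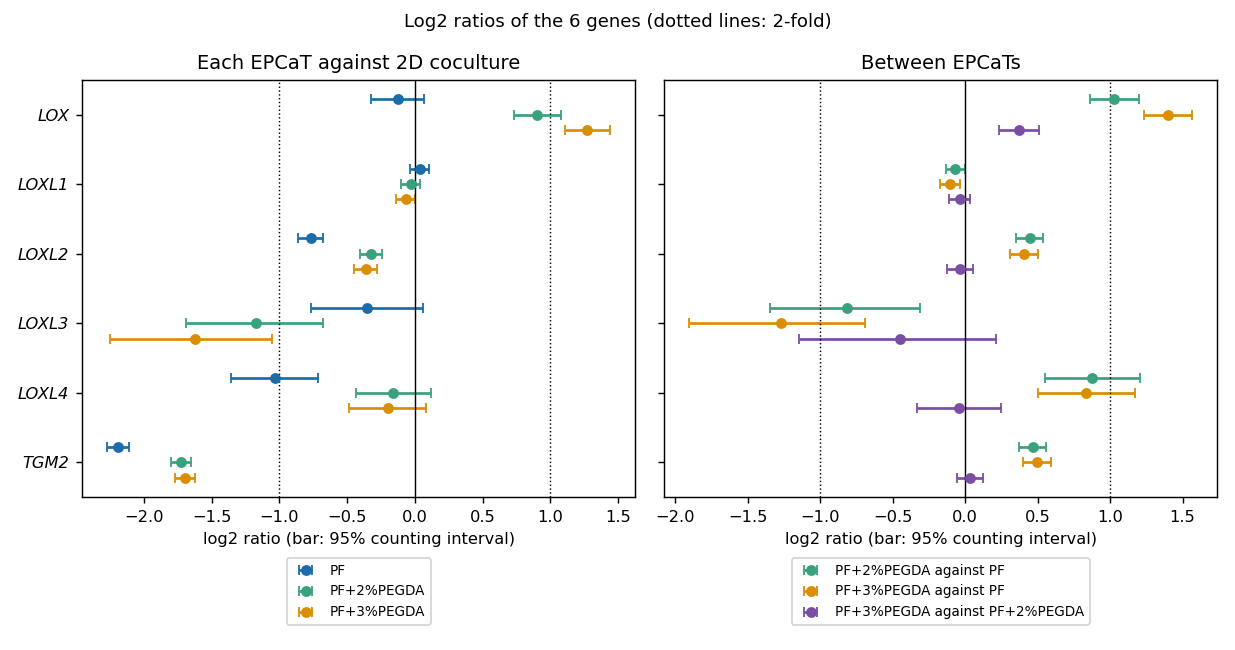
Log2 ratios of the 6 genes, with the first-named library over the second, for each EPCaT against the 2D coculture (left) and between EPCaTs (right). Bars are 95% counting intervals and dotted lines mark 2-fold. TGM2 lies left of the lower dotted line in all 3 EPCaTs, at -2.19, -1.73 and -1.70, and LOX lies right of the upper one in 2% and 3% PEGDA against PF, at 1.03 and 1.40.

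The calls among the 6 genes stand here beside those among all tested genes, and with 6 genes a single call moves the share widely. In the PF EPCaT against 2D, 0 of 6 were higher and 2 lower (LOXL4 and TGM2), where 16.5% of all genes were higher and 12.0% lower (28.5% in either direction). In the PF+2%PEGDA EPCaT, 0 were higher and 2 lower (LOXL3 and TGM2), against 12.4% and 9.45% of all genes (21.9% in either). In the PF+3%PEGDA EPCaT, LOX was higher and LOXL3 and TGM2 lower, against 12.1% and 10.4% (22.4% in either). TGM2 was lower in all 3, as were 6.07% of all genes. These ratios share the 2D library. With 2% PEGDA against PF, LOX alone was higher and 0 were lower, against 2.98% and 5.56% (8.53% in either). With 3% PEGDA against PF, LOX was higher and LOXL3 lower, against 3.63% and 7.51% (11.1% in either). With 3% against 2% PEGDA, 0 of 6 were called in either direction, against 1.85% and 2.41% (4.26% in either).

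The summed expression of the 5 lysyl oxidases was 371 CPM in the PF EPCaT, 429 CPM in the PF+2%PEGDA EPCaT, 434 CPM in the PF+3%PEGDA EPCaT and 449.9 CPM in the 2D coculture. The log2 ratio of the sum to 2D was -0.28, -0.068 and -0.051 in the 3 EPCaTs. Within that sum the make-up differed. On counts per kilobase of merged exons, LOXL1 gave 70.8%, 60.9% and 59.2% of lysyl oxidase expression in the PF, 2% and 3% PEGDA gels, against 59.6% in 2D. LOXL2 gave 20.1%, 24.7% and 24.0% in the same tissues and 29.6% in 2D. LOX gave 5.30%, 9.76% and 12.6% in the EPCaTs and 5.00% in 2D. LOXL4 gave 2.34% to 3.87% in the EPCaTs and 4.14% in 2D, and LOXL3 0.542% to 1.47% in the EPCaTs and 1.62% in 2D. The order of levels per length was LOXL1, LOXL2, LOX, LOXL4, LOXL3 in every library. These shares do not depend on how libraries are scaled to each other, and 95% intervals of the share of raw counts for LOX were 15.0% to 16.9% with 3% PEGDA and 6.43% to 7.73% in PF.

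**Figure D3:**
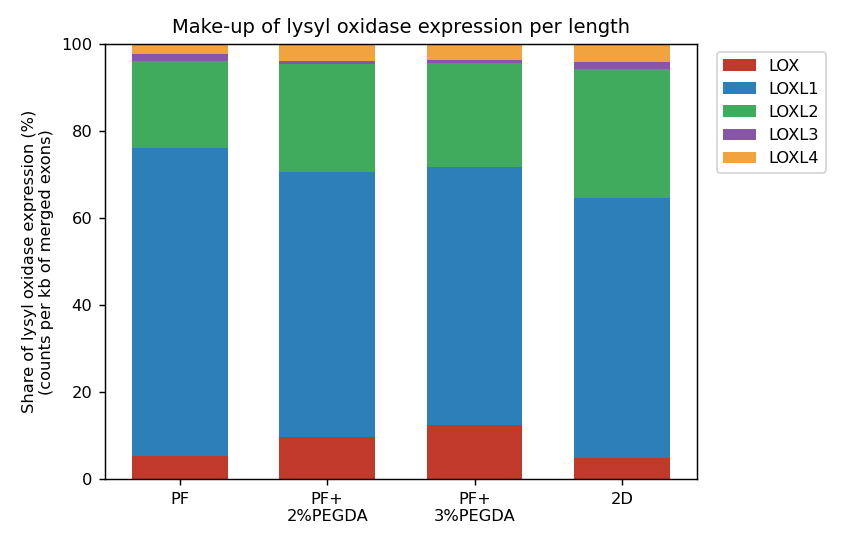
Share of each of the 5 lysyl oxidases in their summed counts per kilobase of merged exons (vertical axis, percent) in each of the 4 libraries (horizontal axis). LOXL1 fills 59.2% to 70.8% of each bar in the EPCaTs and 59.6% in 2D, and the LOX segment is 12.6% with 3% PEGDA and 5.30% in PF.

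Most listed substrates of the family were lower in the gels, so their transcripts stood in different proportion to those of the enzymes. Of 11 listed substrate genes, 10 were tested, and 8 were called lower and 1 higher in all 3 EPCaTs than in 2D. COL1A1 and COL1A2, the chains of collagen I, were 4.77- to 7.07-fold and 7.16- to 17.5-fold lower, and COL4A1, a collagen IV chain and substrate of LOXL2, was 5.70- to 6.87-fold lower. The higher one was COL2A1, a cartilage collagen gene, at 27.7- to 36.5-fold. COL5A2, a collagen V chain gene, was called higher in the PF EPCaT alone, at 2.23-fold. It measured 513, 200 and 177 CPM over the 3 EPCaTs, against 230 CPM in 2D. The list's median log2 ratios were -2.44, -2.38 and -2.80 in the PF, 2% and 3% PEGDA gels, beside 0.020, 0.0074 and 0.00019 over all tested genes.

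There were 0.747 counts of LOXL1 per count of COL1A1 in the PF EPCaT, 0.600 with 2% PEGDA, 0.867 with 3% PEGDA and 0.129 in 2D. For LOX the same ratio was 0.0853 (0.0772 to 0.0941) in the PF EPCaT, 0.147 (0.136 to 0.158) with 2% PEGDA, 0.281 (0.261 to 0.302) with 3% PEGDA and 0.0164 (0.0149 to 0.0181) in 2D. It was lowest in 2D and in order with PEGDA, with no overlap of intervals. LOXL2 had 3.32, 3.81 and 4.48 counts per count of COL4A1 in the EPCaTs and 0.837 in 2D. TGM2 had 0.308, 0.320 and 0.399 counts per count of fibronectin (FN1) in the EPCaTs and 0.184 in 2D. These ratios compare libraries and not levels between genes, which differ in length. The collagen genes used in them were lower in the gels, and no ratio was taken to COL2A1 or COL5A2.

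**Figure D4:**
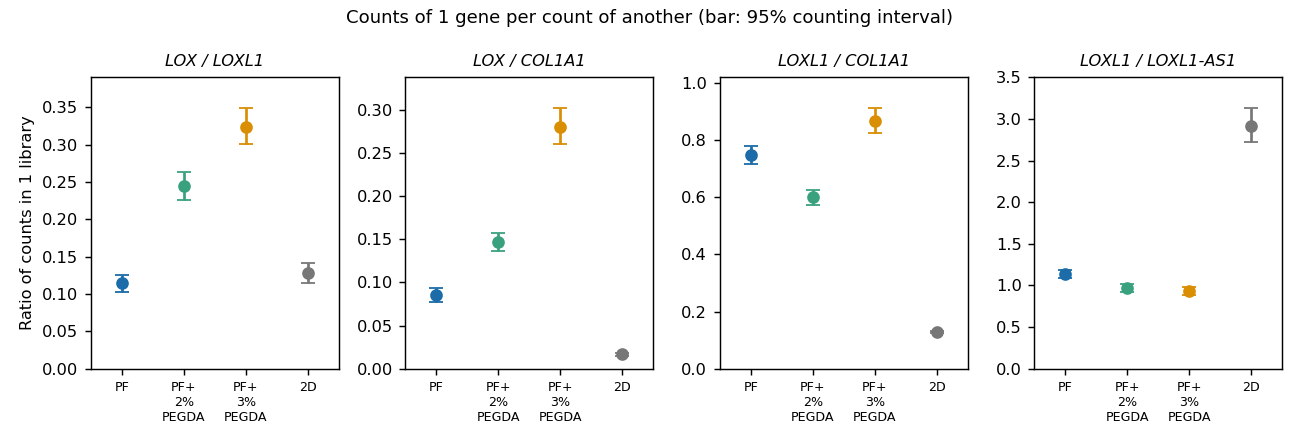
Counts of 1 gene per count of another within each library (vertical axes, linear and from 0) for LOX over LOXL1, LOX over COL1A1, LOXL1 over COL1A1 and LOXL1 over LOXL1-AS1, in the 3 EPCaTs and the 2D coculture (horizontal axes). Bars are 95% counting intervals. LOX over COL1A1 is 0.281 with 3% PEGDA and 0.0164 in 2D, and LOXL1 over LOXL1-AS1 is 0.935 to 1.14 in the EPCaTs and 2.92 in 2D.

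Among all tested genes, 7.84% were called higher and 6.07% lower in all 3 EPCaTs, and the list counts that follow stand beside these shares. Of 7 tested genes of propeptide cleavage and its enhancers, 2 were lower and 1 higher in all 3 EPCaTs. BMP1, the main protease that frees LOX from its propeptide, measured 28.4, 27.9 and 25.5 CPM over the 3 EPCaTs, against 47.4 CPM in 2D and was not called. TLL1, a related protease gene, was 7.04- to 7.73-fold higher, PCOLCE, an enhancer of procollagen cleavage, 4.21- to 5.17-fold lower and ADAMTS2, a procollagen protease gene, 8.39- to 28.5-fold lower. Of 8 tested scaffolds that bind lysyl oxidases, 6 were lower in all 3 and 0 higher. FN1 was 5.78- to 7.68-fold lower, the fibulin-4 gene EFEMP2, which brings LOX to elastic fibres, 2.16- to 3.46-fold, and THBS1, a thrombospondin gene, 2.15- to 2.29-fold.

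Inside the cell, 10 copper supply genes had 1 called higher in all 3 EPCaTs and 0 lower, close to the share of all genes. That gene was ATP7A, the pump that loads copper onto secreted enzymes, at 2.25- to 2.48-fold. SLC31A1, the copper importer gene, measured 121, 126 and 139 CPM over the 3 EPCaTs, against 109 CPM in 2D. Of 13 collagen hydroxylases and chaperones, 1 was higher in all 3 (P4HA1, a prolyl hydroxylase gene, 3.05- to 4.23-fold) and 2 were lower. Those were SERPINH1, a collagen chaperone gene (2.30- to 3.28-fold), and PPIB, a prolyl isomerase gene (3.58- to 4.46-fold). With 3% PEGDA against PF, 0 of the copper supply genes and 0 of the hydroxylases and chaperones were called. In that comparison 3 substrates were lower and 0 higher, while LOX was higher. Of all tested genes, 3.63% were called higher there and 7.51% lower.

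For TGM2, the other transglutaminases were scarce. TGM1, the epidermal enzyme gene, measured 1.56, 0.580 and 0.367 CPM over the 3 EPCaTs, against 1.77 CPM in 2D, and TGM4, the prostate enzyme gene, 1.26, 0.580 and 0.587 CPM over the 3 EPCaTs, against 0.341 CPM in 2D. TGM3 had 0 counts in all 4 libraries. Of 8 surface partners of TGM2, 2 were lower in all 3 EPCaTs (FN1 and the growth factor receptor gene PDGFRB) and 0 higher, and ITGB1, the integrin beta 1 chain gene, measured 1198, 1251 and 1334 CPM over the 3 EPCaTs, against 1456 CPM in 2D. TGM2 responds to TGF-beta and to retinoic acid in many cell types. Of 12 TGF-beta responsive genes, all 3 EPCaTs had 4 lower and 0 higher, among them TGFB2, a ligand gene (2.88- to 3.93-fold). By EPCaT, 0 were higher and 7 lower in PF, 1 and 4 with 2% PEGDA, and 1 and 5 with 3% PEGDA. Of all tested genes, 16.5%, 12.4% and 12.1% were higher in these comparisons, and 12.0%, 9.45% and 10.4% lower. Of 6 tested retinoic acid responsive genes, 1 was lower and 1 higher in all 3. The part of TGF-beta and retinoic acid in the level of TGM2 was not tested.

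**Figure D5:**
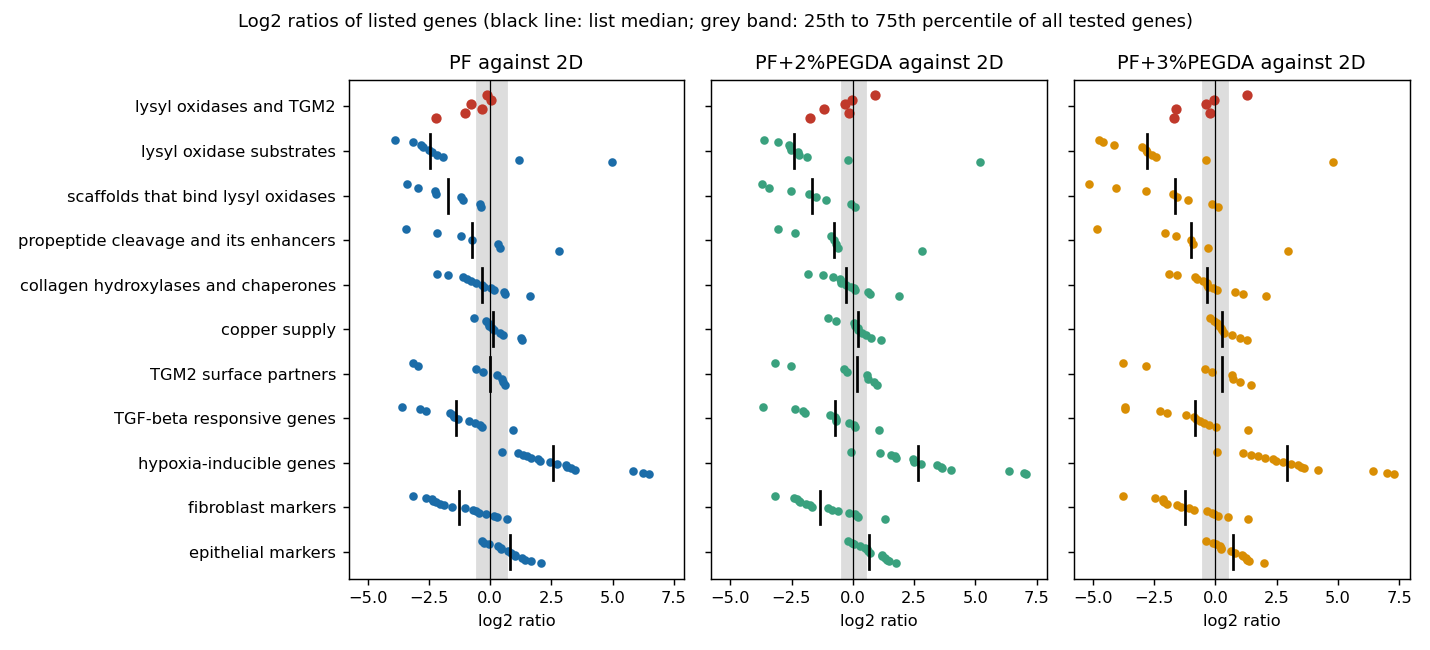
Log2 ratios (horizontal axes) of the 6 genes and of 10 lists (rows) for each EPCaT against the 2D coculture. Each point is a gene, black lines are list medians and the grey band runs from the 25th to the 75th percentile of all tested genes. The 6 genes lie between -2.19 and 1.27, with substrates mostly to their left and hypoxia-inducible genes to the right.

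Markers of the cell lines also differed between the EPCaTs and 2D. Of 16 measured fibroblast markers, 8 were lower in all 3 EPCaTs than in 2D and 0 were higher in all 3. Their summed level was 457 to 546 CPM over the 3 EPCaTs, against 1166 CPM in 2D, with 0 of 16 at 0 counts. The list was not uniform. S100A4 was called higher with 2% and 3% PEGDA, at 2.48-fold in each, and NT5E and FBN1 were not called in any EPCaT. CTNNA1, the alpha-catenin gene, in which PC-3 carries a deletion, is counted in this list and among the 8. It measured 5.40, 6.18 and 8.29 CPM over the 3 EPCaTs, against 33.1 CPM in 2D. This was 3.98- to 6.10-fold lower, beside 3.24- to 4.57-fold for TGM2. Of 14 epithelial markers, 4 were higher in all 3 and 0 lower, and their summed level was 5977 to 6800 CPM over the 3 EPCaTs, against 4290 CPM in 2D, with 0 of 14 at 0 counts. Of 7 endothelial and blood cell markers in the table, types that were not seeded, the summed level was 224 to 317 CPM over the 3 EPCaTs, against 30.7 CPM in 2D, of which KDR and PECAM1 gave 154 and 65.4 CPM in the PF EPCaT, against 22.003 and 7.15 CPM in 2D. VWF and CLDN5 were at 0 counts in 2D and CLDN5 with 2% PEGDA. With 3% PEGDA against PF, 0 of the fibroblast, epithelial and endothelial or blood markers were called. In that comparison 11.1% of all tested genes were called in either direction. The part of the markers in the results for TGM2 and the lysyl oxidases was not tested.

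Over the 4 libraries, the genes whose centred log2 levels lay closest to LOX, among 11067 whose highest library reached 10 CPM, were MSMO1, a sterol oxidase gene, PDGFD, a growth factor gene, and MIF, a cytokine gene, with root mean square differences of 0.069, 0.069 and 0.093. MSMO1 measured 81.2, 154 and 225 CPM over the 3 EPCaTs, against 84.7 CPM in 2D. Closest to TGM2 were NUDT11, HSD17B14 and CEBPB, a leucine zipper transcription factor gene, at 0.020, 0.044 and 0.064. CEBPB measured 118, 165 and 156 CPM over the 3 EPCaTs, against 573 CPM in 2D. Closest to LOXL1 were USP7, ZNF529 and ZNF746, closest to LOXL2 were WBP2, COQ10A and the integrin gene ITGA1, and closest to LOXL4 were SDHAF2, ESD and IFITM10, all within 0.044. Closest to LOXL3 were PPL, the periplakin gene, ABHD14A-ACY1 and the laminin chain gene LAMB1, at 0.052 to 0.077. With 4 libraries many genes share a pattern, and this likeness is a description.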

How the data were processed

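RNA was sequenced from 3 kinds of EPCaT and 1 flat coculture, 1 library per group. Per the labels' protocols, RNA was purified on columns and libraries were made with a TruSeq RNA kit, and the submitters' processing notes name FastQC, STAR, Partek and hg38. Their versions, the annotation used and how reads were counted are not given in the sources used here. The authors deposited 1 table of expected counts, estimated read counts per gene that are not scaled between libraries. Between 18.2% and 19.9% of values in a library were not whole at a tolerance of 0.01, and values were rounded to whole counts.

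Scaling used TMM factors from edgeR 4.0.16, under R 4.3.3. Genes with at least 1 count per 1000000 in 1 or more libraries were kept. Log2 ratios used a prior count of 0.5, with exact Clopper-Pearson 95% intervals of the ratio, and intervals of single levels were exact Poisson ones. A gene was called at 2-fold with an interval excluding equality. These steps were tested on simulated Poisson counts, which hold counting error only, so that test does not cover variation between cultures. The remaining work used Python 3.11.15 (scipy 1.17.1 for intervals, matplotlib 3.10.9 for figures, pandas 2.3.3 and numpy 2.4.6 for tables).

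Coordinates, merged exon lengths and overlaps came from GENCODE release 29 (GRCh38), where 16628 of 17791 symbols were found on the same chromosome. Promoter sequences came from RefSeq. Members, gene lists and tests were chosen with earlier results of these data known. The naming rule allowed, from each list, up to 4 genes with the highest mean CPM and every gene called alike in all 3 EPCaTs, and also the 3 genes most like each member, CTNNA1, and genes whose exons overlap a member. A gene of the TGF-beta list is not reported by name here. VEGFA and B2M fall outside the rule and were chosen after their values were seen. TGM3, VWF and CLDN5 also fall outside the rule and were named for their 0 counts. The alternatives tried were total counts alone, upper quartile scaling, size factors of DESeq2 1.42.0, a prior count of 2, unrounded values, removal of the trend with transcript length and GC (14149 of 14851 genes had both), no filter, a filter of 5 CPM and a 4-fold rule. The length of the longest transcript, in place of merged exons, was added after seeing the data.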

Additional observations from a re-analysis of the deposited data

How the results depend on the processing

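No paired analysis was possible because each group has 1 library, and no replicate could be left out for the same reason. Over 36 ratios of the 6 genes, DESeq2 size factors, upper quartile scaling, a prior count of 2 and unrounded values each changed 0 calls and 0 signs. Total counts as the only scaling moved the median of all genes by 0.18 (PF against 2D) and 0.11 (2% PEGDA against 2D) on the log2 scale, and changed 3 calls and 3 signs of the 6 genes, with shifts of -0.10 to 0.18. It left 1 of 6 lower in PF against 2D, 1 higher in 2% PEGDA against 2D and 0 higher in 2% PEGDA against PF. Removing the trend with length and GC changed 0 calls and 5 signs, with shifts of -0.12 to 0.22; LOXL2 and LOXL4 turned to 0.024 and 0.016 in 3% against 2% PEGDA, and LOXL1 to 0.050. The causes were not tested.

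With the 4-fold rule, 1 of 6 (TGM2) was lower in PF against 2D and 0 of 6 were called in any other comparison. Over all genes, that rule called 960 higher and 461 lower in PF, 662 and 395 with 2% PEGDA and 675 and 466 with 3% PEGDA, each against 2D. It called 96 higher and 208 lower in 2% PEGDA against PF, 99 and 293 in 3% PEGDA against PF, and 75 and 98 in 3% against 2% PEGDA. The filter of 5 CPM gave 222 and 429, 290 and 659, and 43 and 118 in these comparisons between gels. With no filter, 418 were higher in 3% against 2% PEGDA.

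With the length of the longest transcript, LOX gave 4.28%, 7.88% and 10.2% of lysyl oxidase expression in the PF, 2% and 3% PEGDA gels, against 3.96% in 2D, and LOXL2 24.0%, 29.5% and 28.8% in the tissues and 34.7% in 2D. LOXL1 gave 68.6% in PF, 59.1% with 2% PEGDA and 56.8% in 2D. LOXL4 gave 1.74%, 2.87% and 2.80% in the tissues and 3.02% in 2D. The order of the 5 genes was the same. Depth limits LOXL3 most, with 32 to 107 counts per library.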
